A study of Mus musculus with 5 samples.

Results

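The genes described here encode proteins that splice, package and unwind messenger RNA. They are all genes of the deposited table whose symbol begins with one of 13 prefixes (Srsf, Sfrs, Sf3, Snrp, Snrnp, Lsm, Hnrnp, Hnrp, U2af, Prpf, Rbm, Ddx or Dhx), which gave 34 of its 1457 genes. No listed symbol began with Sfrs, Lsm or Hnrp. Grouped by prefix, the 34 genes gave 4 SR proteins, 8 hnRNP proteins, 5 RNA-binding motif proteins and 7 RNA helicases. The other 10 encode proteins of the small nuclear ribonucleoproteins (snRNPs) and the core spliceosome.

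Poly(A) RNA was sequenced from the pancreas of female C57BL/6 mice aged 8 weeks in 5 libraries. Wild-type mice received saline (1 library) or caerulein (replicates 1 and 2), and mice with miR-21 knocked out (miR-21 KO, also written miR-21-/-) received caerulein (replicates 1 and 3). Caerulein, a peptide that acts on cholecystokinin receptors and overstimulates the enzyme-secreting acinar cells, was injected repeatedly into the abdomen at 50 µg/kg to induce acute pancreatitis, and the pancreas was removed 24 h after injections began. The labels give neither the knockout allele nor whether each library came from its own mouse, so p-values may measure technical spread, and there was no saline-treated knockout library.

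In an intron-containing transcript, SR proteins bind exons and promote their inclusion, the snRNPs recognise the splice sites and carry out the splicing reaction, and hnRNP proteins coat the transcript and often oppose exon use. Members of the RNA-binding motif group act in or beside the spliceosome, and DEAD- and DEAH-box helicases use ATP to remodel RNA during splicing, export, translation and decay. Several SR and hnRNP genes control their own transcript through exons that expose it to decay. The pancreas is a tissue of intense secretory protein synthesis, and caerulein pancreatitis is accompanied by acinar cell injury and an influx of leukocytes.

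The knockout removes miR-21, a microRNA that pairs through its seed, bases 2 to 8, with complementary letters in the 3′ untranslated region (UTR) of its targets. Its main mature form in mouse is printed here with the seed in capitals, from RefSeq (GRCm38.p6, chr11:86584120-86584141, minus strand, within the annotated span of Vmp1), followed by the first match to the seed in 4 of the genes that held one, with the match in capitals, 14 bases before it and 1 after. The matches show which of the 34 transcripts carry letters the deleted microRNA could pair with.
mmu-miR-21a-5p: uAGCUUAUcagacugauguuga
Hnrnpa3: ttggtttttaaagtATAAGCTa
Hnrnpk: tattcatgcttataATAAGCTt
Srsf3: ttgtttgagacttcATAAGCTt
Srsf10: gaagaaaacctgtgATAAGCTg

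The letters ATAAGCT were searched on the transcript strand of the longest annotated 3′ UTR of each gene. Hnrnpa3 held 3 matches, and Hnrnpk, Srsf3 and Srsf10 held 1 each. Matches were found in 5 of 34 genes (14.7%), against 111 of the 1410 tested genes with a transcript (7.9%). The 34 genes had shorter 3′ UTRs, with a median of 830 bases against 1268.5. However, those of Hnrnpk, Srsf3, Srsf10 and Hnrnpa3 were longer than both medians, at 1301, 1962, 2722 and 4025 bases. Neither Hnrnph1 (3′ UTR of 752 bases) nor Srsf2 (1068 bases), the members that differed most between knockout and wild type below, held the letters in this window.

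The table is a chosen part of the transcriptome. Sorted by the mean of wild-type caerulein over saline, 0 rows were out of place, and every gene lies at least 2.528-fold from saline in some caerulein library. Counts against saline therefore describe genes that appear chosen for that difference. The same holds for the differences and p-values of single genes against saline below, which are no independent test of a rise. The unit of the values and the read depth were not given in the sources used here, so no counting interval could be made and levels were not compared between genes. Listed values summed to 2818 in saline and to between 23255 and 38628 in the caerulein libraries. In saline 540 genes (37.1%), and 13 of the 34, were listed at the lowest value, 0.01, for which no fold is given. Of 26 acinar marker genes the table held 2, Prss1 and Klk1, so the tissue label was not checked further. No miR-21 transcript was among the listed genes, so the deletion was not checked either.

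The first comparison asked how these transcripts stood after caerulein in wild-type pancreas. As deposited, 20 of the 34 genes rose against saline and 0 fell, where 57.3% of all 1429 tested genes rose, by limma's moderated test on log2(value + 1) with a Benjamini-Hochberg adjusted p under 0.05. The 20 were 8 of 10 snRNP and core genes, 5 of 8 hnRNP genes, 4 of 5 RNA-binding motif genes and 3 of 7 helicase genes, and 0 of 4 SR genes were among them. The median log2 difference was 2.67 for the 34 genes and 2.71 for all tested genes. In bulk tissue a change in the share of cells and a change of RNA per cell cannot be told apart. Markers of monocytes and macrophages moved the same way: 7 of 12 were listed, 3 of the 7 were at 0.01 in saline, and their summed value was 3.17 in saline and 311.08 to 419.31 after caerulein. Their part in these differences was not tested.

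Among the snRNP and core spliceosome genes the clearest rise was in Snrpd1, which encodes an Sm protein of the ring shared by spliceosomal snRNPs. It was listed at 0.01 in saline. After caerulein, wild-type replicates 1 and 2 had 24.16 and 19.09, and knockout replicates 1 and 3 had 30.45 and 12.25, an order kept for all values that follow. All 4 caerulein libraries stood well above saline, and the log2 difference of wild type from saline was 4.48 (SE 1.04, limma adjusted p = 0.0004947). As for every gene here, that p comes from values by which the list appears chosen. Snrnp40, a protein of the U5 snRNP, was 0.01 in saline, 11.58 and 12.77 in wild type and 16.67 and 6.88 in the knockout. Sf3b4, a subunit of the SF3B complex that helps the U2 snRNP hold the branch site, was 0.89 in saline, 12.79 and 18.95 in wild type and 37.44 and 6.86 in the knockout. Both rose in wild type (limma adjusted p = 0.002146 and 0.009103), and in both the knockout libraries lay on either side of the wild-type pair.

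U2af1, the small subunit of the U2 auxiliary factor that reads the AG at the end of an intron, behaved differently. Its values were 3.94 in saline, 18.41 and 0.39 in wild type, and 1.49 and 34.01 in the knockout. Libraries of one genotype thus fell on both sides of saline, and its log2 difference of wild type from saline was 0.07 (SE 1.17, limma adjusted p = 0.9563). Another 5 genes of the group rose in wild type, with log2 differences between 2.25 for Snrpg, an Sm protein, and 3.13 for Snrnp200, the helicase that unwinds U4 from U6. Between them lay Snrpb2, a protein of the U2 snRNP, Prpf6, a scaffold of the tri-snRNP, and Prpf4b, a kinase of the spliceosome.

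Among the hnRNP genes the largest rises in wild type were in Hnrnpa3, Hnrnph2 and Hnrnpr. Hnrnpa3, a relative of the splicing repressor Hnrnpa1, was 1.52 in saline, 46.38 and 30.67 in wild type, and 40.71 and 17.40 in the knockout. Hnrnph2, a paralogue of Hnrnph1 encoding a protein that binds runs of G, was 3.57 in saline, 47.09 and 89.78 in wild type, and 82.09 and 38.75 in the knockout. Hnrnpr was 0.77 in saline, 19.41 and 21.72 in wild type, and 33.89 and 14.87 in the knockout. All 3 stood above saline in each caerulein library, with log2 differences in wild type of 3.94, 3.85 and 3.605 (limma adjusted p = 0.001896, 0.003799 and 0.004108). Hnrnpk, whose protein binds runs of C, was 8.23 in saline, 89.07 and 10.69 in wild type, and 6.96 and 104.12 in the knockout, and did not pass. Of the rest, Hnrnpa1, a repressor of exon inclusion, and Hnrnpc, a core protein that binds runs of U, passed as higher in wild type. Hnrnpa1 passed narrowly (SE 1.38, limma adjusted p = 0.04476). Its libraries lay 2.79 apart in wild type and 3.80 in the knockout, against medians of 1.45 and 1.21 over the 34 genes. For most genes limma took the variance from the trend across genes, so that p may not reflect these gaps. Hnrnpf, another G-run binder, had a log2 difference of 2.21 (SE 1.47) that did not pass.

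Of the 5 RNA-binding motif genes 4 were listed at 0.01 in saline, and these 4 rose. Rbmxl1, an intronless relative of the X-linked Rbmx, was 0.01 in saline, 18.44 and 11.03 in wild type, and 19.15 and 8.61 in the knockout. Rbm28, a nucleolar protein, was 0.01 in saline, 11.83 and 6.35 in wild type, and 7.33 and 3.86 in the knockout. Both rose in wild type, by 3.92 and 3.27 on the log2 scale (limma adjusted p = 0.001268 and 0.02781). Rbm10, a regulator of exon skipping, was 0.01 in saline, 10.19 and 5.60 in wild type, and 12.64 and 9.06 in the knockout. Rbm22, which contacts the catalytic RNA of the spliceosome, was 0.01 in saline, 7.76 and 6.34 in wild type, and 13.66 and 4.49 in the knockout. Rbm6 was 1.42 in saline, 9.65 and 2.94 in wild type, and 5.05 and 6.60 in the knockout. Rbm10 and Rbm22 rose in wild type (limma adjusted p = 0.0130 and 0.02816) and Rbm6 did not pass, although it too lay above saline in every caerulein library.

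All 7 helicase genes stood above saline in each caerulein library. Ddx46, which remodels the U2 snRNP, was 0.33 in saline, 12.14 and 8.34 in wild type, and 10.93 and 11.30 in the knockout, the tightest set of caerulein values in the group. Ddx6, a helicase of mRNA decay and storage, was 0.65 in saline, 22.50 and 6.96 in wild type, and 11.60 and 13.31 in the knockout. Dhx9, a nuclear helicase, was 0.61 in saline, 15.07 and 3.49 in wild type, and 6.50 and 9.70 in the knockout. These 3 rose in wild type (limma adjusted p = 0.009329, 0.009176 and 0.04697). Ddx3x, an X-linked helicase that aids translation of structured transcripts, was 4.82 in saline, 55.71 and 10.71 in wild type, and 18.87 and 48.39 in the knockout. Ddx52, of ribosome assembly, was 1.02 in saline, 11.08 and 4.64 in wild type, and 6.57 and 4.61 in the knockout. Neither passed in wild type, nor did Ddx18, a nucleolar helicase, and Ddx19a, a helicase of mRNA export, with log2 differences of 2.19 and 2.38.

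The 4 SR protein genes had the smallest median difference from saline of the 5 groups. Srsf2, which binds exonic enhancers, was 14.65 in saline, 32.33 and 4.37 in the wild-type caerulein libraries (1, then 2), and 0.01 and 7.04 in the knockout libraries (1, then 3). No other of the 34 genes lay under saline in 3 caerulein libraries. Srsf3, the smallest SR protein, was 11.97 in saline, 72.25 and 27.32 in wild type, and 10.90 and 145.23 in the knockout. Srsf5 was 7.17 in saline, 10.70 and 8.37 in wild type, and 2.0 and 29.05 in the knockout. Srsf10, which can repress splicing when dephosphorylated, was 0.01 in saline, 9.90 and 1.31 in wild type, and 0.52 and 10.12 in the knockout. In all 4 genes knockout replicate 1 was the lowest caerulein library, and wild-type replicate 1 and knockout replicate 3 were both above the other 2 libraries.

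**Figure D1:**
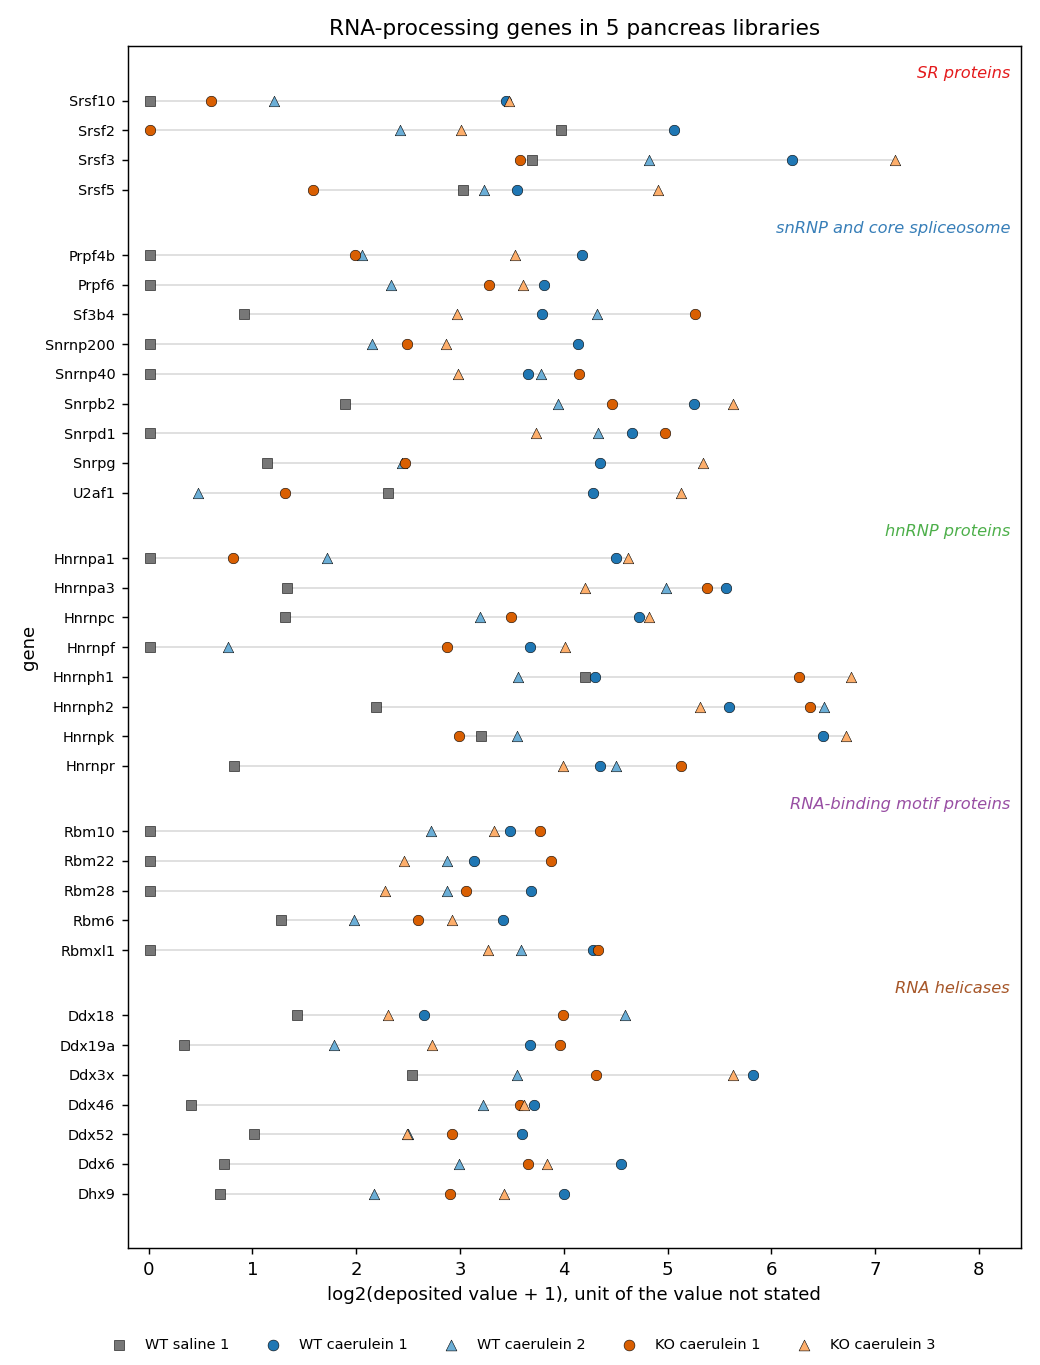
Values of 33 of the RNA-processing genes in each library on the log2(value + 1) scale, grouped by symbol prefix. WT is wild type, KO is miR-21 knockout, each point is 1 library, and grey lines join the lowest and highest. Snrpd1 lies at 0.01 in saline and between 12.25 and 30.45 after caerulein, while the SR genes and U2af1 have saline among the caerulein libraries or knockout replicate 1 far to the left.

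In the knockout the comparison with saline uses the same saline library, so its calls are not independent of those above. As deposited, 19 of the 34 genes rose, where 60.3% of all tested genes rose, and 1 gene, Srsf2, fell, where 0.14% fell (2 of 1429). The rises were 6 of 10 snRNP and core genes, 5 of 8 hnRNP, 5 of 7 helicase, 3 of 5 RNA-binding motif and 0 of 4 SR genes. Snrpd1 again had the largest difference, 4.34 (SE 1.04, limma adjusted p = 0.0005688), and Hnrnpr followed among the genes above 0.01 in saline with 3.73 (SE 1.06). Srsf2 fell by 2.46 on the log2 scale (SE 1.02, limma adjusted p = 0.03179). That fall rests on knockout replicate 1, in which Srsf2 was listed at 0.01: without it the difference was -0.96 (SE 1.5, limma adjusted p = 0.5714).

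The counts against saline depend on single libraries and on the scaling. In wild type 11 of the 34 genes were called without wild-type replicate 1 (35.8% of all genes), 10 without knockout replicate 1 (26.4%) and 9 when knockout replicate 3 was left out (35.6%). In the knockout 10 were called without knockout replicate 3 (27.9%) and 1, Hnrnpa1, without knockout replicate 1 (2.03%). Scaling the libraries to equal sums without the 20 most abundant genes moved the median of all genes in wild type from 2.71 to 0.83. It left 4 of the 34 higher and 2, Hnrnph1 and Srsf2, lower, where 251 of 1426 tested genes were higher and 34 lower (20% called). Quantile normalization moved that median to 0.05. It left 0 of the 34 higher and 1, Hnrnph1, lower, where 0 of 1436 tested genes were higher and 9 lower (0.627% called).

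The scalings moved the groups by different amounts. The SR genes had a median log2 difference in wild type of 1.09 as deposited, which turned to -2.10 with equal sums and -1.74 with quantile normalization. The RNA-binding motif genes had 3.09 as deposited, 2.79 with equal sums and 0.53 with quantile normalization, and the snRNP and core genes 3.08, 2.33 and 0.53. The hnRNP genes had 2.87, 1.04 and 0.45, and the helicases 2.38, 0.22 and -0.27, the last with the sign turned. In wild type the SR median was thus under that of all genes under each of these 3 settings. The hnRNP, snRNP and RNA-binding motif medians were over it there. However, without wild-type replicate 1 those of the hnRNP (1.79) and snRNP genes (2.09) were under the 2.32 of all genes. With only genes above the lowest value in every library, the RNA-binding motif group was Rbm6 alone, at 1.42, against 2.51 for all genes. In the knockout the medians, in the same order of settings, were 0.95, -2.31 and -1.89 for the SR genes, 3.15, 2.76 and 0.53 for the RNA-binding motif genes and 3.14, 0.59 and 0.55 for the hnRNP genes, against 2.80, 0.86 and 0.07 for all genes. The low SR median in the knockout rests on knockout replicate 1: without it the median was 2.67, against 2.78 for all genes, and without knockout replicate 3 it was -0.78.

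The question of the series was how the knockout differed from wild type after caerulein. By limma 0 of the 34 genes and 0 of the 1429 tested genes (0%) passed at an adjusted p under 0.05, while 2 of the 34 and 7 of all had an unadjusted p under 0.05. Those 2, Hnrnph1 and Srsf2, had the smallest and the second smallest p of all tested genes. The p of Srsf2 does not reflect the gaps between its libraries of one genotype, given below. The median log2 difference of the 34 genes was -0.08, against 0.10 for all genes, 16 of the 34 were higher in the knockout, and the median SE was 0.89. Genes low in several libraries had wide intervals, such as Srsf10 at -0.29 (95% interval -4.05 to 3.47).

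Hnrnph1 encodes hnRNP H1, which binds runs of G in exons and introns and can promote or repress exon use by its position. It was 17.46 in saline, 18.71 and 10.80 in the wild-type caerulein libraries (1, then 2), and 75.70 and 107.84 in the knockout libraries (1, then 3). As deposited, the wild-type libraries were close to saline or under it and both knockout libraries far above, so the groups did not overlap: the lower knockout value was 4.05 times the higher wild-type value, and the ratio of the means was 6.22. Counting groups that did not overlap by any margin, in either direction, gave 1 of the 34 genes and 9.31% of all tested genes. How many genes had a gap as wide as that of Hnrnph1 was not counted. Its log2 difference between knockout and wild type was 2.58 (SE 0.90, 95% interval 0.81 to 4.35), with an unadjusted p = 0.004267 and an adjusted p = 0.9997 by limma.

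Hnrnph1 was higher in the knockout for each of the 4 pairings of libraries. On the log2 scale knockout replicate 3 exceeded wild-type replicates 1 and 2 by 2.46 and 3.21, and knockout replicate 1 exceeded them by 1.96 and 2.70. Leaving out each caerulein library in turn gave 2.21 to 2.95. A model with a block that joined the most similar libraries was added after seeing the data. The block, wild-type 1 with knockout 3 and wild-type 2 with knockout 1, was chosen from the same values. It gave the same difference of 2.58, with an adjusted p of 0.01252 by limma over all 5 libraries. Over the 4 caerulein libraries alone the limma adjusted p was 0.08339. The saline library, alone in its group, adds no measure of spread of its own to the first fit. Because the block came from these values, neither p counts as support. Against saline, the knockout difference was 2.31 (SE 1.11, limma adjusted p = 0.05865) as deposited and -1.06 with equal sums. In wild type it was -0.28 (SE 1.11) as deposited but called lower than saline with equal sums (-3.53, limma adjusted p = 0.008873) and with quantile normalization (-4.34, limma adjusted p = 0.01791), so its place relative to saline depends on the scaling. Relative to wild type the knockout difference was 2.47 and 2.38 under those scalings.

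The paralogue Hnrnph2 showed no such difference. Its knockout values of 82.09 and 38.75 lay within the range of the wild-type values of 47.09 and 89.78 or just under it, with a log2 difference of -0.20 (SE 0.92, 95% interval -2.002 to 1.6). Hnrnpf, of the same family and printed after its values were seen, had 6.35 and 15.16 in the knockout and 11.78 and 0.70 in wild type, a difference of 1.23 (SE 1.199). The other 5 hnRNP genes lay between -0.48 for Hnrnpa3 and 0.20 for Hnrnpc. Stretches of 36 bases that also occur in annotated transcripts of other genes made up 6.5% of the Hnrnph1 transcript, 38.3% of Hnrnph2 and 65.2% of Hnrnpf. No source used here says how reads with several matches were treated, so the values of genes with large shares are uncertain, among them also Rbmxl1 (84.9%), Ddx18 (70.2%) and U2af1 (62.7%).

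Srsf2 had the opposite sign, with 0.01 and 7.04 in the knockout against 32.33 and 4.37 in wild type. Knockout replicate 3 was above wild-type replicate 2, so the groups overlapped. The log2 difference was -2.23 (SE 0.83, 95% interval -3.87 to -0.59), with an unadjusted p = 0.007766 and an adjusted p = 0.9997 by limma. Libraries of the same genotype lay further apart, by 2.63 in wild type and 2.99 in the knockout. Over the 34 genes the median gaps were 1.45 and 1.21, yet the SE of Srsf2 was under the median SE of 0.89. For most genes limma took the variance from the trend across genes. The SE, interval and p of Srsf2 thus do not reflect those gaps. Without knockout replicate 1 the difference between genotypes was -0.73, without wild-type replicate 1 it was -0.91, and without knockout replicate 3 it was -3.73. Of its 36-base stretches 36.4% also occur in transcripts of other genes, mainly Mettl23, and no source used here says whether strand was used in counting. The other SR genes had differences between -0.29 for Srsf10 and -0.13 for Srsf3, and their intervals included 0.

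**Figure D2:**
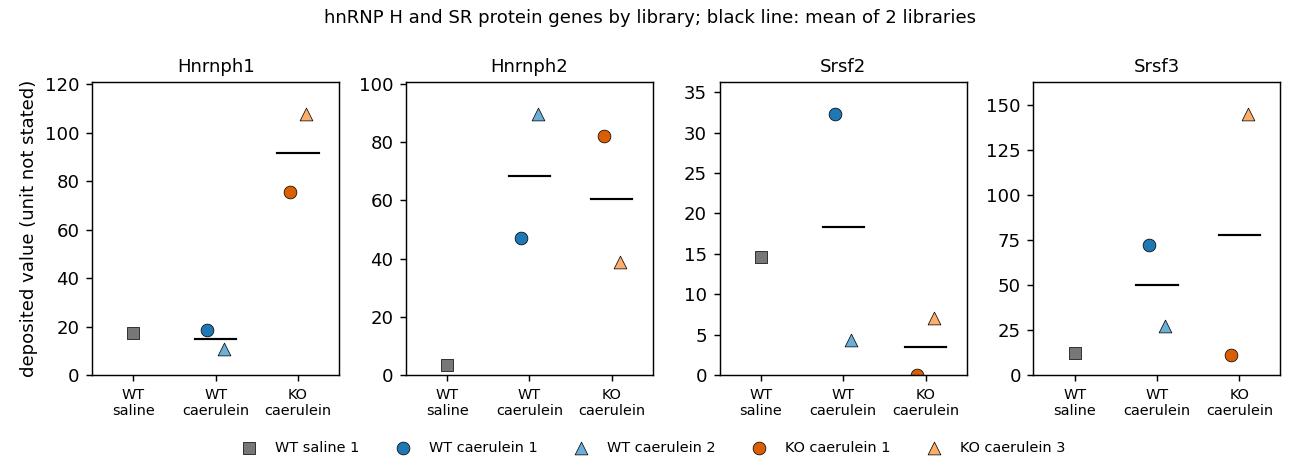
Deposited values of Hnrnph1, Hnrnph2, Srsf2 and Srsf3 in each library on linear axes that start at 0; points are libraries and black lines are means of 2 libraries. Both knockout libraries of Hnrnph1 (75.70 and 107.84) stand above every other library, whereas the knockout and wild-type points of the other 3 genes overlap.

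Elsewhere the differences between knockout and wild type were small against their error. The snRNP and core genes named above lay between -0.47 for Snrnp200 and 0.85 for U2af1, the RNA-binding motif genes between -0.61 for Rbm28 and 0.45 for Rbm10, and the helicases between -0.47 for Ddx18 and 0.62 for Ddx19a. With 2 libraries a group the median SE was 0.89, close to that of Dhx9 (SE 0.88), whose 95% interval ran from -1.65 to 1.81. Differences within such an interval could not be told from 0. Larger ones need not pass after adjustment either, as Hnrnph1 at 2.58 did not (limma adjusted p = 0.9997).

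**Figure D3:**
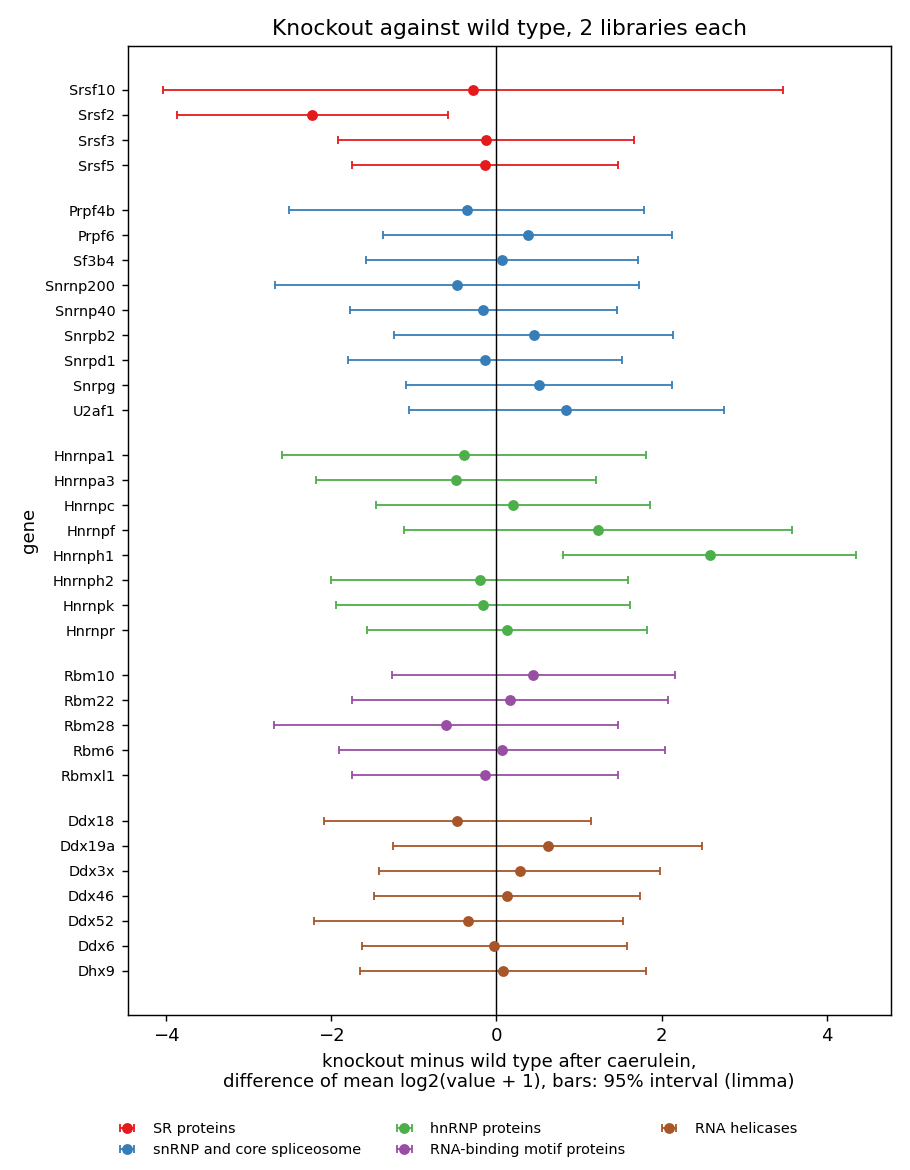
Difference of mean log2(value + 1) between knockout and wild-type caerulein libraries for 33 of the genes, 2 libraries a group. Bars are 95% intervals from limma, and colours are the prefix groups. Of those drawn, only the intervals of Hnrnph1 (0.81 to 4.35) and Srsf2 (-3.87 to -0.59) leave out 0. Neither gene passed after adjustment over all genes. For 88.4% of all tested genes the variance behind the interval was taken wholly from the trend across genes. The interval of Srsf2 does not reflect the gaps between its libraries of one genotype.

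The 5 genes with a match to the miR-21 seed were set beside the rest. All 5 had a lower mean log2 value in the knockout, with a median difference of -0.29, against 0.07 for the 29 without a match, of which 16 were higher in the knockout. Over all tested genes the medians were 0.02 with a match (58 of 111 higher) and 0.10 without (774 of 1299 higher). None of the 5 passed the test, and their intervals all included 0. The sign depends on the scale: from the means of the deposited values, the knockout stood at 1.57 times wild type for Srsf3 and 1.11 times for Hnrnpk.

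Among the caerulein libraries most of these genes differed more within a genotype than between like libraries of different genotype, with Hnrnph1 among the exceptions. Over the 34 genes the Spearman correlation of values of wild-type replicate 1 with knockout replicate 3 was 0.73 and that of wild-type replicate 2 with knockout replicate 1 was 0.80, but it was 0.42 between the wild-type libraries and 0.16 between the knockout libraries. For the remaining cross-genotype pairs it was 0.27 (wild-type replicate 1 with knockout replicate 1) and 0.30 (wild-type replicate 2 with knockout replicate 3). Over all tested genes the same correlations, in this order, were 0.73, 0.74, 0.35, 0.45, 0.45 and 0.42. These are descriptions across genes, which are not independent replicates, and each library enters several of them. The like pairs were picked as the most alike in these same values, so their closeness follows in part from that choice. The median size of the difference over the 34 genes was 1.45 between the wild-type libraries and 1.21 between the knockout libraries, against 0.67 and 0.63 between the like libraries of different genotype.

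Wild-type replicate 1 and knockout replicate 3 both exceeded both other caerulein libraries in 20 of the 34 genes (58.8%), against 40.1% of all tested genes, and both lay under them in 5 (14.7%), against 19.7%. The 20 included all 4 SR genes, 7 of 10 snRNP and core genes, 4 of 8 hnRNP, 4 of 7 helicase and 1 of 5 RNA-binding motif genes. U2af1 had the widest gap, with wild-type replicate 1 above replicate 2 by 3.80 on the log2 scale and knockout replicate 3 above replicate 1 by 3.81. For Hnrnpk the gaps were 2.95 and 3.72. Hnrnpa1, singled out after its values were seen, was 0.01 in saline, 21.70 and 2.28 in wild type, and 0.76 and 23.52 in the knockout, with gaps of 2.79 and 3.80. In the opposite order stood Ddx18, likewise singled out, with 1.69 in saline, 5.28 and 23.00 in wild type, and 14.89 and 3.93 in the knockout, and Sf3b4, Hnrnph2, Hnrnpr and Snrnp40.

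**Figure D4:**
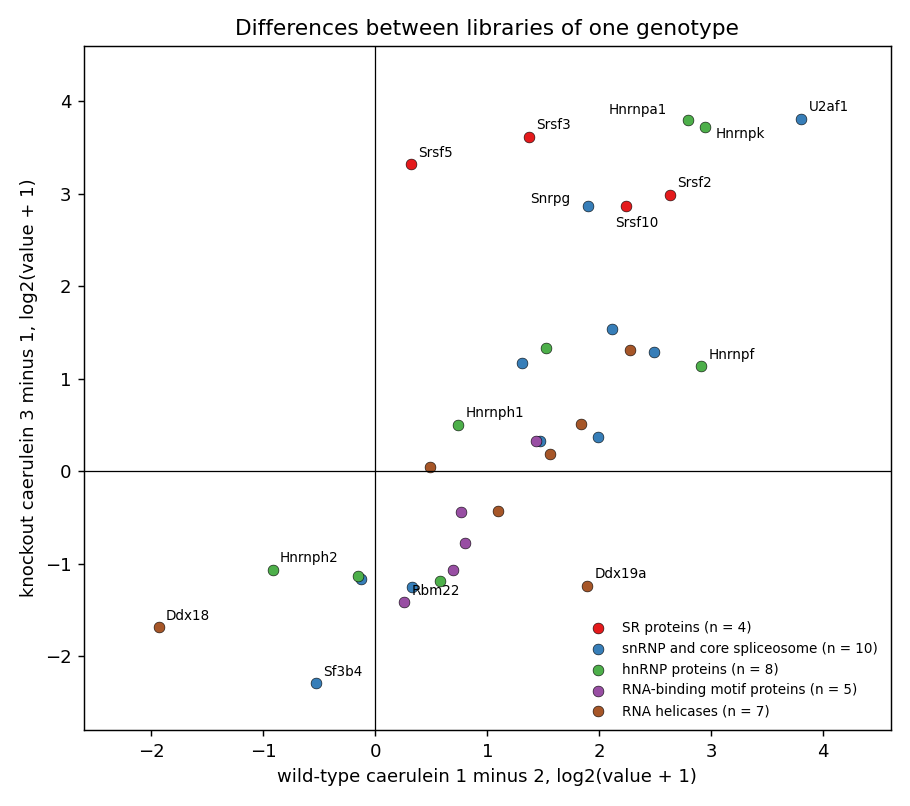
The difference of log2(value + 1) between the 2 wild-type caerulein libraries (replicate 1 minus 2) is horizontal. That between the 2 knockout libraries (replicate 3 minus 1) is vertical. Each point is 1 of the 34 genes, coloured by prefix group. Values are as deposited, so the differences include any difference of scale between libraries. In 26 of 34 genes both differences have the same sign, and the 4 SR genes lie in the upper right with U2af1, Hnrnpk and Hnrnpa1.

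Across the 34 genes these 2 within-genotype differences had a Pearson correlation of 0.73 and a Spearman correlation of 0.75, and shared their sign in 26 genes. Over all tested genes the values were 0.52 and 0.56, with 925 of 1429 sharing their sign. The summed values of the SR genes by library were 33.80 in saline, 125.18 and 41.37 in wild type, and 13.43 and 191.44 in the knockout. Those of the RNA-binding motif genes were 1.46 in saline, 57.87 and 32.26 in wild type, and 57.83 and 32.62 in the knockout. The SR sums thus followed the likeness of libraries, whereas the RNA-binding motif sums were alike in wild-type replicate 1 and knockout replicate 1.

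Some markers moved with the same split of libraries and others did not. Klk1, an acinar serine protease, was 562.80 and 303.03 in wild-type replicate 1 and knockout replicate 3, and 22.23 and 141.85 in wild-type replicate 2 and knockout replicate 1. Prss1, a trypsinogen and the other acinar marker listed, did not follow it, at 0.01 in both wild-type libraries and 6.50 and 12.28 in the knockout. The 4 listed matrix and stellate cell markers summed to 749.78 and 352.91 in the first pair and to 111.90 and 159.37 in the second. Most of the sums in the first pair came from Col3a1 (525.10 and 271.09). Postn was alike in knockout replicates 1 and 3 (32.83 and 32.67), and Fn1 was lowest in knockout replicate 3, at 8.08. The 7 macrophage markers did not follow the split, with sums of 419.31 and 363.04 against 311.08 and 388.69. The neutrophil marker Csf3r ran the opposite way, at 8.09 and 6.69 against 21.82 and 16.26. The duct marker Krt8 followed the split, at 352.53 and 283.62 against 142.86 and 244.99. So did the red blood cell marker Hbb-b2, at 23.28 and 8.90 against 4.56 and 1.37. The sums of the 2 islet and of the 2 lymphocyte markers listed did not. The GC content of transcripts, with a median of 44.9% for the 34 genes and 48.2% for all, had a Spearman correlation with the split of -0.22 over the 34 genes and -0.25 over all. The part of cell make-up, and of GC content, in the split was not tested, and the labels name no batch. Since the deletion of miR-21 could not be checked in these values, each difference between knockout and wild type rests on the labels as given, and an exchange of labels was not tested.

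Other genes of RNA processing, from 6 lists of factors without these prefixes, were counted in the same fits. The table held 27 of the 134 listed. In wild type 16 of the 27 rose and 0 fell (57.3% of all genes rose), in the knockout 14 rose and 0 fell against saline (60.3% of all rose), and between knockout and wild type 0 passed by limma, with 0 at an unadjusted p under 0.05. Their median log2 differences were 2.78, 2.54 and -0.01. Ybx1, a cold-shock domain protein that packages mRNA, was 17.09 in saline, 303.53 and 328.69 in wild type, and 692.92 and 251.71 in the knockout, and rose in both. Of the same list of 7, in which 4 rose in each genotype, Tardbp, which encodes TDP-43, was 6.47 in saline, 55.15 and 32.00 in wild type, and 26.50 and 85.93 in the knockout. Nono, a paraspeckle protein, was 7.60 in saline, 64.10 and 28.51 in wild type, and 16.55 and 84.52 in the knockout, and did not pass.

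Of the 6 SR-related proteins and kinases listed, 5 rose in wild type and 3 in the knockout. Rnps1, of the exon junction complex, was 2.21 in saline, 26.63 and 74.77 in wild type, and 39.09 and 24.61 in the knockout. Son, a nuclear speckle protein, was 6.58 in saline, 39.75 and 20.46 in wild type, and 33.32 and 23.99 in the knockout. Srrm2, another speckle protein, was 2.40 in saline, 49.05 and 10.39 in wild type, and 6.60 and 20.51 in the knockout. All 3 lay above saline in every caerulein library, and of them Rnps1 rose in both genotypes, Srrm2 in wild type, and Son passed in neither.

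Of the 5 other spliceosome subunits, 2 rose in each genotype, Usp39 and Luc7l2, with 0.01 and 0.33 in saline, 8.54 and 11.14 in wild-type replicate 1, 14.57 and 10.89 in replicate 2, 16.55 and 5.90 in knockout replicate 1, and 6.16 and 18.46 in replicate 3, while Rnpc3 did not pass. Of the 6 genes of the exon junction, export and polyadenylation, 4 rose in each genotype. Upf3a, of nonsense-mediated decay, was 0.36 in saline, 15.30 and 12.72 in wild type, and 32.25 and 15.90 in the knockout. Nxf1, the main mRNA export receptor, was 0.01 in saline and between 9.28 and 15.63 after caerulein. Smg1, the kinase of nonsense-mediated decay, was 6.19 in saline, 17.06 and 1.85 in wild type, and 6.25 and 22.97 in the knockout, and did not pass. Of the translation helicases, Eif4a1 was 8.60 in saline, 121.86 and 60.07 in wild type, and 66.74 and 176.90 in the knockout and rose in both. Eif4a2 was 14.71 in saline, 19.23 and 5.86 in wild type, and 2.38 and 40.48 in the knockout, and Strap, of snRNP assembly, was 3.73 in saline, 27.19 and 2.93 in wild type, and 0.30 and 20 in the knockout. These last 2 passed in neither genotype, and in both knockout replicate 1 was the lowest library.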

How the data were processed

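Poly(A) RNA was fragmented, reverse transcribed with random primers and sequenced on an Illumina instrument, per the labels' protocols. Bowtie 0.12.2 and the mm8 build appear in the submitters' processing notes, while annotation, quantification, normalization and strand were not given in the sources used here. Each file deposited by the authors holds 1 signal value per gene, unit unstated, for the same 1457 genes in each of 5 libraries. Depth is unknown, and 0 value columns were left unmapped. Values were used as deposited on the log2(value + 1) scale, which understates differences of low genes.

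Testing was limited to the 1429 genes that reached 1 in 2 or more libraries, among them all 34 members. limma 3.58.1 in R 4.3.3 fitted 1 mean per group over all 5 libraries with a trended, robust variance, and p-values were adjusted by Benjamini-Hochberg over all tested genes within each comparison, with a threshold of 0.05. The 2 residual degrees of freedom come from the caerulein groups, the saline library is taken to be as variable, and for 88.4% of genes the variance was taken wholly from the trend across genes. The script was tested on simulated data. Seed matches, GC content and shared stretches come from the GENCODE M21 transcripts (GRCm38), matched for 1436 of 1457 genes by symbol or synonym. These differ in build from mm8, so no gene coordinates are given.

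The members, subgroups and lists were chosen with earlier results of these data known. Values in every library are given for Hnrnph1, Srsf2, members called or not overlapping between knockout and wild type, members under saline in at least 3 caerulein libraries, and the 3 largest and 2 smallest differences of wild type from saline in each subgroup. Of the other RNA-processing genes up to 3 per list with the highest caerulein mean are named. 1 gene that the rule names is not reported here and stayed in the tests and counts. Alternatives were other scalings, filters, a pseudocount of 0.1, a variance without robustness, fits without the group not compared, and fits that omit each caerulein library in turn. Scaling the caerulein libraries by their median ratio and the block joining similar libraries were added after seeing the data.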

Additional observations from a re-analysis of the deposited data

How the results depend on the processing

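The number of members called in wild type against saline, 20, became 1 with quantile normalization, 6 with sums made equal, 10 with only genes above the lowest value in all 5 libraries and 9 with only the groups compared, and ranged from 9 to 26 when a caerulein library was left out. In the knockout against saline, 20 became 1, 6 and 12 under the first 3 of these settings and ranged from 1 to 24 when a library was left out. Of all tested genes 57.3% were called in wild type in the main fit. The share was 0.627%, 20%, 57.3% and 35.9% under the 4 settings named first. In the knockout it was 60.4% in the main fit and 0.418%, 18% and 63.7% under the first 3. Only 20 of the 34 were tested among genes above the lowest value in all 5 libraries. The cause of these changes was not tested, beyond the smaller number of genes or libraries where a setting leaves some out. For knockout against wild type the count was 0 under every setting but the block joining similar libraries over all 5 libraries, which gave 1 (Hnrnph1, log2 difference 2.58); leaving out a library gave 0 to 0. The Hnrnph1 difference ranged from 2.21 to 2.95 and that of Srsf2 from -3.73 to -0.73 when a library was left out, and Srsf2 was -3.76 with a pseudocount of 0.1. Srsf2 has no value when only genes above the lowest value are kept, since it was at 0.01 in 1 library. The fall of Srsf2 against saline in the knockout did not pass without knockout replicate 1, with a pseudocount of 0.1 (limma adjusted p = 0.0692) or with median-ratio scaling (limma adjusted p = 0.1007). No paired analysis was possible because the groups share only 1 replicate number in the labels. The block above joins libraries by likeness in these same values, not by label, so its call is no support.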
